A study of Homo sapiens with 2 samples.

Results

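The nuclear genes for the subunits of oxidative phosphorylation were compared between 2 cultures of SW620, an established human colorectal cancer line that came from a lymph node, on 1 Affymetrix 3′ expression array each. One culture, called SOX2 knockdown, had received a hairpin RNA against the stem cell transcription factor SOX2 by lentivirus. The other, called mock knockdown, is the labelled control. Both grew in RPMI medium, and each array started from 250 ng of total RNA. The labels used here do not say whether the knockdown culture was a clone or a pool. Titles call both samples KO where their source names say knockdown, and a description shared by both speaks of mouse liver, which does not match the human cell line named in every other label. Members were taken by gene symbol: NDUFA, NDUFB, NDUFC, NDUFS or NDUFV with a number, SDHA to SDHD, UQCR and CYC1, COX4 to COX8 with subunit letters, and ATP5F, ATP5M or ATP5P, with pseudogenes left out. This gave 76 of the 19775 genes that had a probe set of their own, 32 for complex I, 3 for complex II, 7 for complex III, 17 for complex IV and 17 for complex V. NDUFC2, NDUFS5, NDUFS8 and UQCRH had only probe sets that also name another gene, and SDHB and UQCRFS1 were not analysed here.

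Oxidative phosphorylation runs in the inner mitochondrial membrane. Complex I takes electrons from NADH and complex II from succinate, and both hand them to ubiquinone. Complex III passes them on to cytochrome c, complex IV to oxygen, and complex V, the ATP synthase, uses the resulting proton gradient to make ATP. Most subunits are encoded in the nucleus and are imported, while a small core is encoded in mitochondrial DNA, so each complex needs both genomes and a set of assembly factors.

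With 1 array per group there were no replicates, no test was possible, and precision is limited by this number of arrays. Each gene is given by the linear intensity of its brightest probe set, the one of highest mean log2 value. Differences are log2 values, SOX2 knockdown minus mock knockdown. A gene was counted as measured when it reached the floor, the median of all intensities, 68.5, on at least 1 array, and 13609 genes did. SOX2 itself, at the probe set where it was brightest, stood at 20.9 on the SOX2 knockdown array and 2077 on the mock array, and since the lower value lies under the floor it was at least 30.3-fold lower. A second SOX2 probe set that reached the floor stood at 120 on the SOX2 knockdown array and 333 on the mock array, a difference of -1.47. The ratio of 3′ to 5′ control signal was 1.43 on the SOX2 knockdown array and 1.20 on the mock array for beta-actin, and 1.06 and 1.04 in the same order for GAPDH. Epithelial markers were present, with EPCAM at 9898 on the SOX2 knockdown array and 8910 on the mock array, and the 9 listed markers summed to 63246 and 50484. Of these 9, 4 were higher by 1.5-fold or more, CDH1, CDX2, KRT8 and CDH17, at 0.91, 0.74, 0.66 and 1.13. VIL1 alone was lower, at -1.25, with 4 probe sets from -1.25 to -0.19. Together that is 55.6%, where 29.8% of all genes differed by as much. CDH17 was dim, at 78.0 on the SOX2 knockdown array and 35.5, under the floor, on the mock array. CDX2 stood at 116 and 69.2 in the same order, the latter close to the floor. Of the markers of other cell types, PTPRC and CD3E of leukocytes, CDH5 and KDR of endothelium and COL1A2 and COL3A1 of fibroblasts lay under the floor on both arrays. The endothelial genes PECAM1 and VWF reached the floor, at 105 and 93.4 on the SOX2 knockdown array and 123 and 102 on the mock array. So did the fibroblast genes COL1A1, DCN and PDGFRB, at 237, 110 and 89.5 on the SOX2 knockdown array and 290, 91.5 and 98.4 on the mock array. CD14 stood at 156 on the SOX2 knockdown array and 43.6 on the mock array, and the fibroblast gene LUM at 17.8 and 71.7. The 3 leukocyte markers with a probe set summed to 237 and 122, and the 6 fibroblast markers to 519 and 619. The part of RNA quality or of these markers in the differences below was not tested.

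Most subunit genes differed little between the arrays. Of the 76 members 73 reached the floor, all of them on both arrays, and 63 of the 73 lay within 1.5-fold. Their median difference was -0.06, where the median of all 13609 genes was -0.0063, and 42 lay below 0 and 31 above. The standard deviation of their differences was 0.40, against 1.004 over all genes. NDUFA3 alone was higher by 2-fold or more in SOX2 knockdown cells and NDUFA8 alone lower by 2-fold or more, where 8.44% of all genes were higher and 7.29% lower by as much, together 15.7%. At a limit of 1.5-fold, 3 members were higher and 7 lower, together 13.7%, where 15.0% of all genes were higher and 14.8% lower, together 29.8%. Among the 3307 genes that reached an intensity of 1000, 38.6% differed by at least 1.5-fold, and among the 68 members that did, 10 or 14.7%. In RNA from whole cultures, fewer cells that express a gene and less RNA per cell cannot be told apart.

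**Figure D1:**
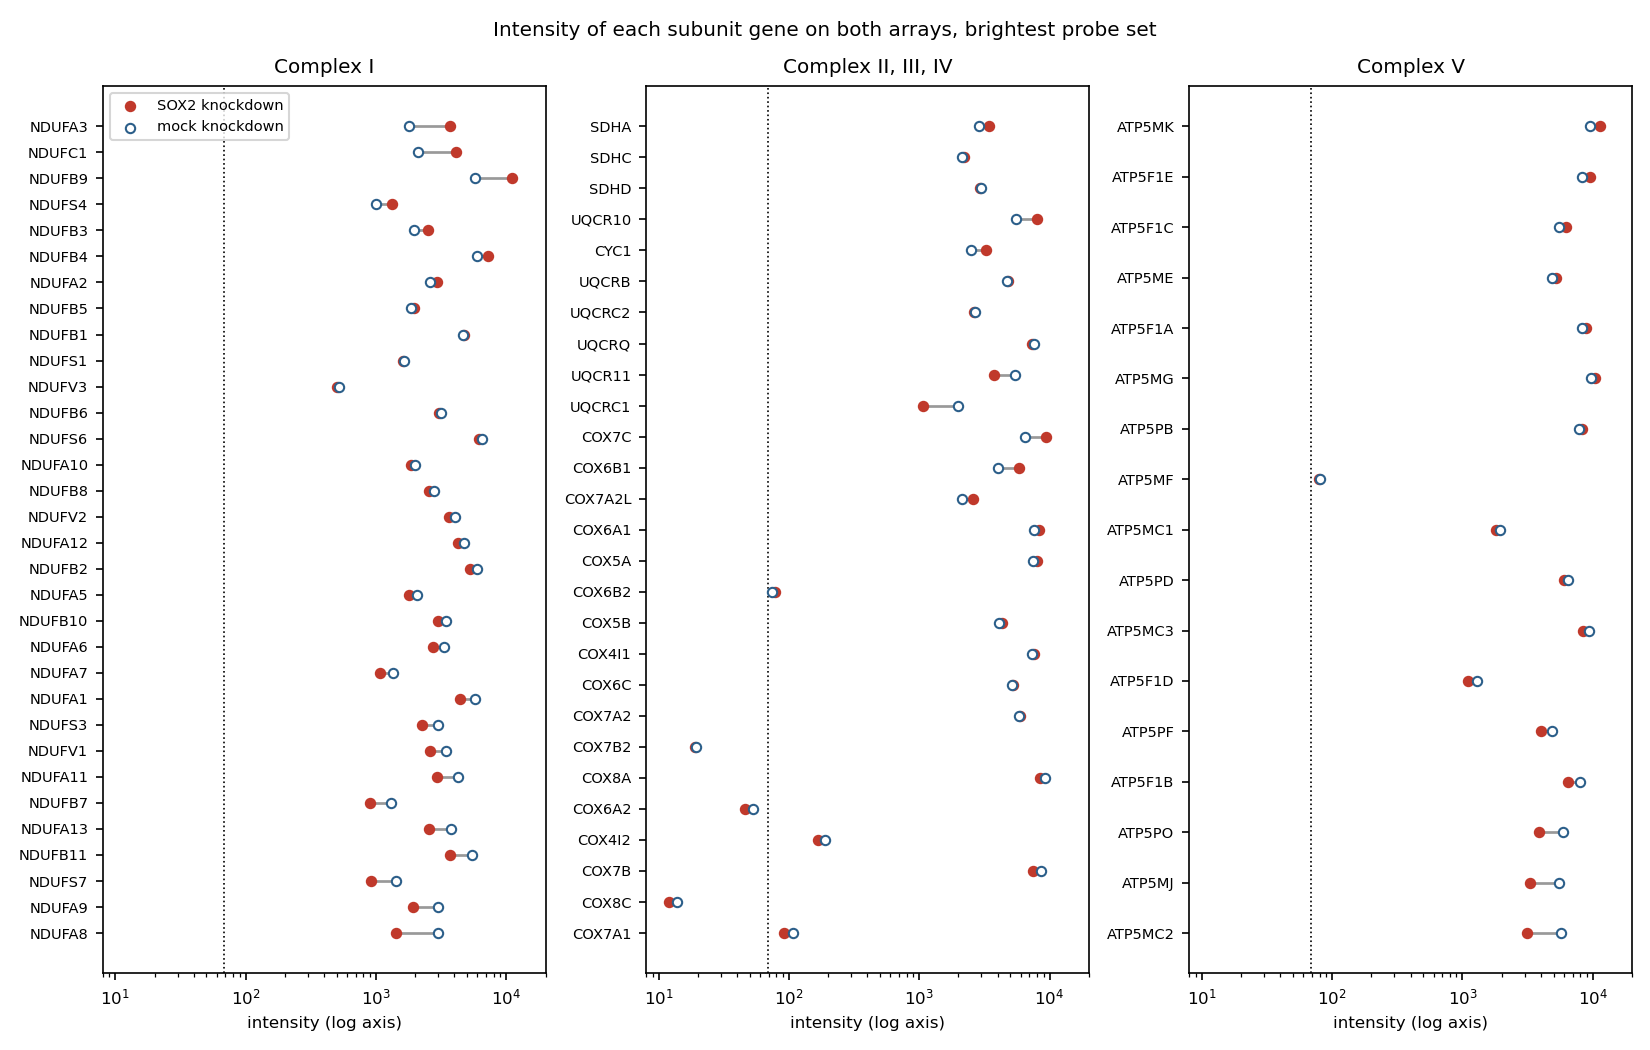
Intensity of the brightest probe set of each of the 76 subunit genes on the SOX2 knockdown array (filled) and the mock array (open), on a log axis, by complex and ordered within each by the difference. The dotted line is the floor of 68.5; the longest gaps are those of NDUFA3 at the top and NDUFA8 at the bottom of complex I, and COX8C, COX6A2 and COX7B2 lie left of the floor.

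The only spread these arrays offer is that between probe sets of a gene, which holds no variation between cultures. In 31 members with several probe sets at the floor or above, the pooled standard deviation of their log2 differences was 0.24, against 0.49 over all genes with several, and 40 of the 73 members differed by no more than 0.24 either way. All probe sets pointed the same way in 18 of the 31, and in no member did they lie 1 or more apart on the log2 scale. The widest gaps were in NDUFB2, whose probe sets ranged from -0.19 to 0.70, and in COX5A, from 0.12 to 0.88. For 41 of the 73 the value came from a probe set that can match several transcripts, and subunit genes have many processed pseudogenes that such a probe set could also detect.

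Complex I held both members past 2-fold and leaned to lower values. Of its 32 genes 23 lay below 0 and 9 above, with a median difference of -0.16, where 6877 of all 13609 genes lay below 0. At least 1.5-fold lower were 3 and at least 1.5-fold higher 3, together 18.75%, where 29.8% of all genes differed by as much. The lowest was NDUFA8, an accessory subunit on the intermembrane space side, with an intensity of 1421 on the SOX2 knockdown array and 2998 on the mock array, a difference of -1.08 or 2.11-fold. NDUFA9, an accessory subunit where the matrix arm meets the membrane arm, stood at 1937 on the SOX2 knockdown array and 2991 on the mock array, a difference of -0.63. Both genes had 1 probe set. NDUFS7, a core subunit that carries the last iron-sulfur cluster before ubiquinone, stood at 923 on the SOX2 knockdown array and 1420 on the mock array, a difference of -0.62, but its other probe set differed by 0.10. NDUFB11, NDUFA13, NDUFB7 and NDUFA11 came next, with differences of -0.58, -0.56, -0.53 and -0.52, just short of the 1.5-fold limit.

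The higher members of complex I were set apart from the rest. NDUFA3, a small accessory subunit of the membrane arm, had an intensity of 3705 on the SOX2 knockdown array and 1808 on the mock array, a difference of 1.04 or 2.05-fold. NDUFC1, another small membrane arm subunit, stood at 4132 on the SOX2 knockdown array and 2104 on the mock array, a difference of 0.97. NDUFB9, a subunit of the far end of the membrane arm, stood at 10993 on the SOX2 knockdown array and 5740 on the mock array, a difference of 0.94. The next highest, NDUFS4 and NDUFB3, differed by 0.43 and 0.36, so a gap separates the leading 3 from the others. All 3 rest on 1 probe set at the floor or above.

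Within complex I the core subunits, which carry the flavin and iron-sulfur clusters, all lay below 0. The 5 measured were NDUFS7, NDUFV1, NDUFS3, NDUFV2 and NDUFS1, with differences of -0.62, -0.41, -0.39, -0.15 and -0.02 and a median of -0.39. For NDUFV1, the NADH-binding subunit, the other probe set differed by -0.03. For NDUFS1, whose 4 probe sets ran from -0.02 to 0.34, the value is within the probe set spread. Taking for each core gene the probe set of smallest difference, the core median was -0.03. Of the accessory subunits 10 of 12 NDUFA genes lay below 0, with a median of -0.30, and 6 of 11 NDUFB genes, with a median of -0.06.

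**Figure D2:**
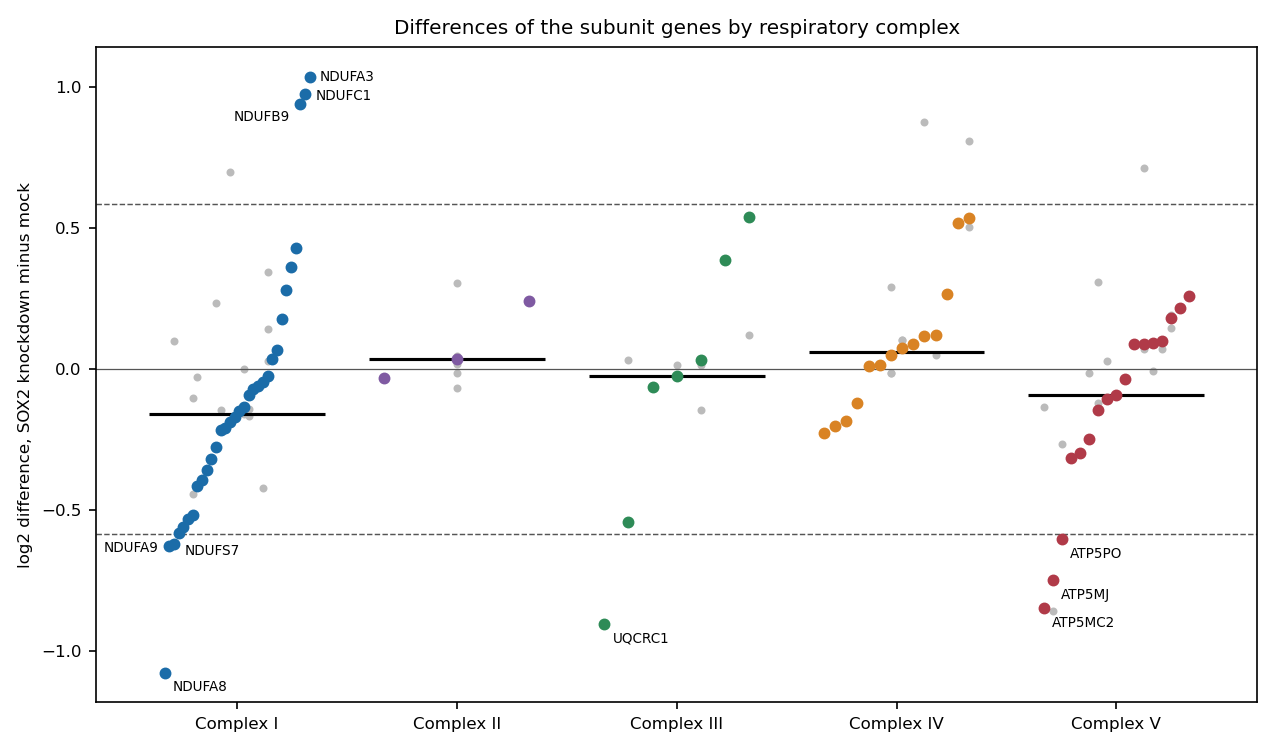
Log2 difference, SOX2 knockdown minus mock, of each subunit gene that reached the floor, ordered within its complex; coloured points are brightest probe sets, grey points other probe sets of the same gene, bars are medians and dashed lines mark 1.5-fold. Complex I spans -1.08 to 1.04, while all 14 complex IV genes stay inside the dashed lines at their brightest probe sets.

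The 3 genes of complex II were nearly level, while those of complex III varied most, with a standard deviation of 0.50 against 0.47 for complex I. In complex II the flavoprotein SDHA stood at 3429 on the SOX2 knockdown array and 2900 on the mock array, a difference of 0.24. The membrane anchors SDHC and SDHD differed by 0.03 and -0.03, and the 6 probe sets of SDHC ran from -0.07 to 0.30. In complex III, with a median of -0.02, the lowest was UQCRC1, a core protein on the matrix side, with 1068 on the SOX2 knockdown array and 2001 on the mock array, a difference of -0.91 from a single probe set. Its partner core protein UQCRC2 had 2612 on the SOX2 knockdown array and 2657 on the mock array, a difference of -0.02, so the core proteins differed unequally. UQCR11, a small subunit, differed by -0.54 at its brightest probe set and 0.03 at the other. CYC1, which holds the haem that reduces cytochrome c, stood at 3272 on the SOX2 knockdown array and 2503 on the mock array, a difference of 0.39. The highest member, the small subunit UQCR10, had 8052 on the SOX2 knockdown array and 5544 on the mock array, a difference of 0.54, and 0.12 at its other probe set.

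Complex IV varied least among the complexes with more than 3 members. Its 14 measured genes had a standard deviation of 0.24 and a median of 0.06. In either direction 0 of the 14 reached 1.5-fold, where 29.8% of all genes did. The largest positive difference was that of COX7C, with 9429 on the SOX2 knockdown array and 6513 on the mock array, 0.53, and its 3 probe sets ran from 0.50 to 0.81. COX6B1, on the intermembrane space side, had 5794 on the SOX2 knockdown array and 4045 on the mock array, a difference of 0.52. COX5B, which binds zinc, differed by 0.07 to 0.10 at all 4 of its probe sets. COX7A2L, counted here by its symbol and known as a factor that joins complexes III and IV, differed by 0.26.

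The isoforms of complex IV used by particular tissues gave little signal on either array. COX7A1, a heart and skeletal muscle form, stood at 91.2 on the SOX2 knockdown array and 107 on the mock array, the lowest difference of the complex at -0.23. COX4I2, the lung form, stood at 168 on the SOX2 knockdown array and 191 on the mock array, and COX6B2, a testis form, at 78.7 and 74.1. COX6A2 of muscle and COX7B2 and COX8C of testis lay under the floor on both arrays, at 46.3, 19.1 and 12.0 on the SOX2 knockdown array and 52.6, 19.3 and 13.9 on the mock array, so no difference is given for them. Their widely expressed counterparts COX4I1, COX6A1, COX7A2, COX7B and COX8A differed by 0.05, 0.12, 0.01, -0.20 and -0.12. COX6B1, the counterpart of COX6B2, differed by 0.52.

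Complex V had lower members past 1.5-fold and no higher ones at their brightest probe sets. Of its 17 genes 3 were at least 1.5-fold lower and 0 higher, together 17.6%, with a median of -0.09. Of all genes 14.8% were lower and 15.0% higher by as much, together 29.8%. ATP5MC2, 1 of 3 genes for the same mature ring subunit, stood at 3141 on the SOX2 knockdown array and 5660 on the mock array, a difference of -0.85, with -0.13 at its other probe set. The other ring genes, ATP5MC1 and ATP5MC3, differed by -0.09 and -0.15, with a further probe set of ATP5MC3 at 0.31. ATP5MJ, a small membrane subunit, had 3290 on the SOX2 knockdown array and 5526 on the mock array, a difference of -0.75 and one of -0.86 at its other probe set. ATP5PO, which ties the peripheral stalk to the catalytic head, had 3884 on the SOX2 knockdown array and 5906 on the mock array, a difference of -0.60, with -0.27 at its other probe set at the floor or above. The 5 genes of the F1 part, which is the catalytic head with its central stalk, ranged from -0.32 for ATP5F1B to 0.21 for ATP5F1E, with a median of 0.09. The highest member was ATP5MK, a small membrane subunit, at 0.26. ATP5MG, another membrane subunit, differed by 0.09 at its brightest probe set, but 1 of its 4 probe sets differed by 0.71. ATP5MF rests on a probe set near the floor, at 78.8 on the SOX2 knockdown array and 80.7 on the mock array.

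Promoters are printed for the highest and lowest members, NDUFA3 and NDUFA8, for UQCRC1, the lowest outside complex I, and for NDUFC1. The NDUFC1 window has none of the marked motifs and was picked with that known. Promoters picked in this way cannot show whether motif content goes with the direction of a difference. NRF1, the ETS factor GABP and YY1 are regulators long tied to respiratory genes. The sequences run from 250 bases before to 50 bases after the gene start, are from RefSeq on GRCh38.p14 and read 5′ to 3′ on the gene's strand. Capitals mark NRF1 (its 10-base consensus), ETS (CCGGAAG) and YY1 (AAGATGG) matches on either strand. They lie at chr9:122159730-122160029 on the minus strand, chr19:54102605-54102904 on the plus strand, chr3:48609597-48609896 on the minus strand and chr4:139302502-139302801 on the minus strand.
NDUFA8: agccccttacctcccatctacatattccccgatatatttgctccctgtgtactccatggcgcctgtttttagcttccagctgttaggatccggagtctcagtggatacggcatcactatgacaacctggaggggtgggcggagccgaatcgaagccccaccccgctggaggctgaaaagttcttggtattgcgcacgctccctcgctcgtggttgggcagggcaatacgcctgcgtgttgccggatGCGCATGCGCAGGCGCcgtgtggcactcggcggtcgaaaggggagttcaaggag
NDUFA3: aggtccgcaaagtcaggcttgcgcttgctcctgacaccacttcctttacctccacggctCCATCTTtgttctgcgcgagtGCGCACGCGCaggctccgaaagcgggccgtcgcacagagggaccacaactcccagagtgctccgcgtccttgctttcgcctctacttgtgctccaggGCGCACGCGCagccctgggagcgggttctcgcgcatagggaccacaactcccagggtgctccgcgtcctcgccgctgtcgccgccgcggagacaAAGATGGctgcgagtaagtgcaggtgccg
UQCRC1: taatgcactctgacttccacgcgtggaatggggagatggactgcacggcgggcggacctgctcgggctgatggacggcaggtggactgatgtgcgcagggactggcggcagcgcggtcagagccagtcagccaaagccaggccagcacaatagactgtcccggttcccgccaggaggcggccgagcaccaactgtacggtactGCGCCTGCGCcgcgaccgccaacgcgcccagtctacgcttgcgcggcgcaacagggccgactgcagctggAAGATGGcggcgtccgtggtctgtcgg
NDUFC1: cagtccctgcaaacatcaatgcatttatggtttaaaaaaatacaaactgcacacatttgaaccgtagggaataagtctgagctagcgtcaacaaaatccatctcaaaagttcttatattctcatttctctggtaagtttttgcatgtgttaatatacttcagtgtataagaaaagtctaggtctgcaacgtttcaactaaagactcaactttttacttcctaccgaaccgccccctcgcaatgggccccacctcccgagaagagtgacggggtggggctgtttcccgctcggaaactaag
The NDUFA8 window holds a pair of overlapping NRF1 matches over its start, and the NDUFA3 window holds an NRF1 pair and a YY1 pair. The upstream YY1 match of NDUFA3 overlaps a SOX match (AACAAAG on the other strand). UQCRC1 has an NRF1 and a YY1 match.

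Over the 64 members with a promoter in the RefSeq table, 16 or 25% held an NRF1 match, where 10.9% of 10297 protein-coding genes reaching the floor and 6.28% of all 27305 promoters did. YY1 matches stood in 23.4% of members, 7.38% of those genes and 6.06% of all promoters. ETS matches stood in 28.1%, 18.2% and 10.7% in the same order, and SP1 matches (GGGCGG) in 60.9%, 68.8% and 44.6%. A SOX match (AACAAAG or AACAATG) was found in 5 members, ATP5PF, ATP5PO, NDUFA3, NDUFA5 and SDHD, or 7.81%, and in 4.88% and 8.36% of the wider sets. NRF1 matches were as common in the 36 members with a difference below 0, at 25%, as in the 25 above 0, at 24%. A match is a description of letters, not a bound site.

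Members tended to differ the same way as the genes around them on the chromosome. For each member the median difference of the 20 measured genes on either side, members left out, was taken from the order of genes in the RefSeq table. Across the 73 members, which share this pair of arrays and in part their neighbours, Pearson's r between a member's difference and that median was 0.59 and Spearman's rho 0.59, and 53 or 72.6% had the same sign. Over the 13522 other genes r was 0.23 and rho 0.32, and 60.4% had the same sign. These sets were not matched for level or spread. An intensity of 1000 was reached by 68 of the 73 members but by 3307 of all 13609 genes. The standard deviation was 0.40 over members and 1.004 over all genes. Without the 2 members of most extreme neighbours, NDUFB9 and NDUFC1, r was 0.47 and rho 0.55, and without the 11 members of chromosome 19 r was 0.62 and rho 0.54.

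NDUFB9 and NDUFC1 stood among neighbours that were themselves higher on the SOX2 knockdown array. The neighbours of NDUFB9 on chromosome 8 had a median of 1.36, above its own 0.94, and those of NDUFC1 on chromosome 4 a median of 0.79. NDUFA3 and NDUFA8, the members past 2-fold, had neighbours at 0.07 and -0.02. The neighbours of UQCRC1, ATP5MC2 and ATP5MJ had medians of -0.16, -0.24 and -0.12. On chromosome X all 3 members were lower, NDUFB11 at -0.58, NDUFA1 at -0.36 and COX7B at -0.20, beside neighbours at -0.36, -0.48 and -0.30. With each member's neighbours subtracted, a step chosen after the data were seen, 2 members were at least 1.5-fold higher, NDUFA3 at 0.97 and COX7C at 0.71. By the same measure 4 were lower, NDUFA8, UQCRC1, ATP5MJ and ATP5MC2, at -1.06, -0.74, -0.62 and -0.61. Whether gene copy number differed between the cultures was not tested.

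**Figure D3:**
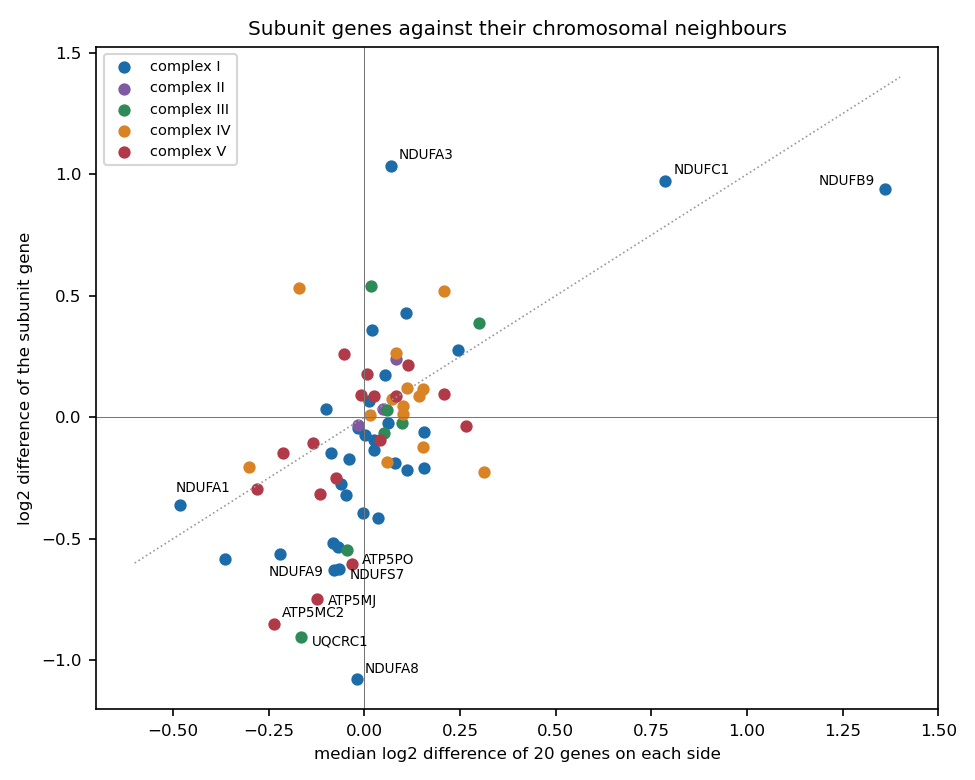
Log2 difference of each of the 73 measured subunit genes (vertical) against the median log2 difference of the 20 genes on each side of it (horizontal), coloured by complex; the dotted line marks equal values. NDUFB9 and NDUFC1 lie far to the right, while NDUFA3 and NDUFA8 stand above and below neighbours near 0.

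Chromosome 19, with 11 members, split in gene order. The 7 on the short arm, ATP5F1D, NDUFS7, UQCR11, NDUFA11, NDUFA7, NDUFB7 and NDUFA13, come from complexes I, III and V. At their brightest probe sets all 7 were lower, between -0.62 and -0.25, with a median of -0.53. Other probe sets at the floor or above differed by 0.10 for NDUFS7, 0.03 for UQCR11 and -0.02 for ATP5F1D. Those of NDUFA11 differed by -0.44 and -0.10, and that of NDUFA7 by -0.32. The 429 other genes ranked up to NDUFA13 in the gene order had a median of -0.08, and 61.8% of them lay below 0. They include KIR2DL2, KIR2DS5 and LILRA3, ranked first, though the related KIR2DL1 and LILRA2 were ranked near the other end. On the long arm NDUFA3 and COX6B1 differed by 1.04 and 0.52, COX6B2 by 0.09 and the dim COX7A1 by -0.23. The 459 other genes from COX6B1 on had a median of 0.19, and 27.5% lay below 0. At their brightest probe sets the members of the short arm thus differed the same way as the median of those 429 genes, and by more.

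**Figure D4:**
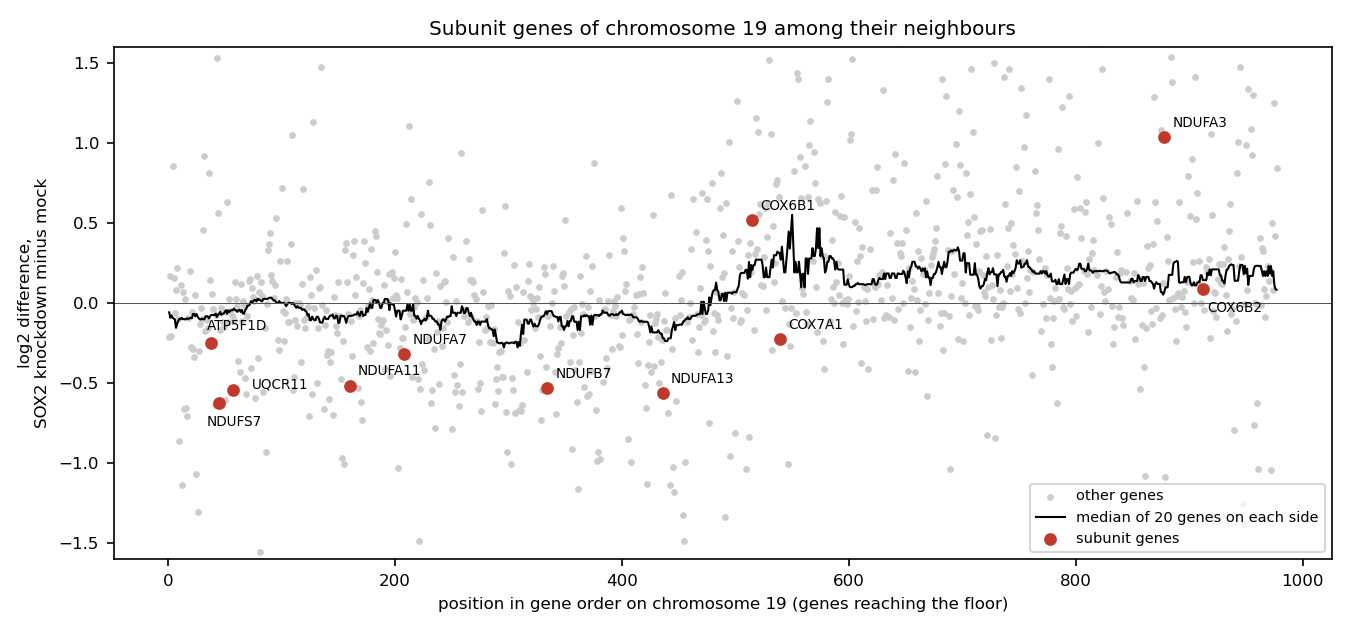
Log2 difference of genes on chromosome 19 in gene order (grey), subunit genes (red) and the median of the 20 genes on each side (line); genes beyond 1.6 either way are not drawn. At their brightest probe sets the 7 subunit genes up to NDUFA13 lie between -0.62 and -0.25. Over that stretch the line is mostly below 0 but rises to 0.03 near ZNF556, and it moves above 0 before COX6B1.

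Of the 13 subunits encoded in mitochondrial DNA, 4 were measured, and these hardly differed. ND4 stood at 10166 on the SOX2 knockdown array and 10302 on the mock array, and ND2, ND4, ND6 and ATP6 differed by -0.02, -0.02, -0.02 and -0.0050. Among the genes that transcribe and copy mitochondrial DNA, some differed by more. TFB1M, which methylates mitochondrial ribosomal RNA, stood at 364 on the SOX2 knockdown array and 1239 on the mock array, a difference of -1.77, and -1.91 at its other probe set. TFAM, which packages mitochondrial DNA and starts its transcription, stood at 1567 on the SOX2 knockdown array and 3541 on the mock array, a difference of -1.18, with 4 probe sets from -1.88 to -0.94. The GABP subunit GABPA differed by -0.87 and the polymerase subunit POLG2 by -0.73, and POLRMT differed by -0.66 at one probe set and 0.13 at another. Of 19 measured genes of this list 5 were at least 1.5-fold lower and 1 higher, together 31.6% where 29.8% of all genes differed by as much. Their median was -0.07. The higher gene, the coactivator PPARGC1B, differed by 0.59, and by 0.26 at its other probe set. It was dim, at 111 on the SOX2 knockdown array and 73.5, close to the floor, on the mock array. NRF1 differed by -0.07, and the coactivator PPARGC1A lay under the floor, at 41.2 on the SOX2 knockdown array and 30.0 on the mock array. Neighbours of TFAM and TFB1M had medians of -0.33 and -0.35.

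Assembly factors for complexes I and IV had medians further below 0 than the subunits of those complexes. Of 27 measured factors for complex IV, 8 were at least 1.5-fold lower and 0 higher, with a median of -0.30, beside a median of 0.06 for its subunits. Together that is 29.6%, where 14.8% of all genes were lower and 15.0% higher by as much. SCO1, a copper chaperone, had 554 on the SOX2 knockdown array and 1306 on the mock array, a difference of -1.24. CMC1 differed by -1.03, COA8 by -0.82 and CMC2 by -0.82, though the other probe set of COA8 differed by -0.02. With the probe set of smallest difference for each gene, the median of these factors was -0.09. Of 19 factors for complex I, 3 were lower by as much and 0 higher, together 15.8%, with a median of -0.36, beside -0.16 for its subunits, among them OXA1L, the inner membrane insertase, at -0.83 and NDUFAF5 at -0.74. COA1 differed by -0.71 at its brightest probe set and 0.02 at another. Of 13 for complexes II and III, 3 were lower and 1 higher, together 30.8%, TTC19 at -0.91, LYRM7 and UQCC1 at -0.81 each and SDHAF1 at 0.62. Their median was 0.02, but -0.15 with the floor at the 75th percentile and -0.42 with a floor of 1000. Of 6 for complex V, 1 was lower, TMEM242 at -0.89. No difference between these lists and the subunits was tested.

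Electron carriers and nucleotide exchange genes had a median of -0.25, and of 20 measured, 4 were lower by 1.5-fold or more and 1 was higher, together 25%, below the 29.8% of all genes. Cytochrome c, CYCS, which links complexes III and IV, stood at 7934 on the SOX2 knockdown array and 9479 on the mock array, a difference of -0.26. COQ10A differed by -1.07, COQ5 of ubiquinone synthesis by -0.72 and ETFDH, which feeds electrons to ubiquinone, by -0.67, while ETFB differed by 0.64. The adenine nucleotide carrier SLC25A4 differed by -1.03 at its brightest probe set and 0.03 at another, and SLC25A5 by -0.24.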

How the data were processed

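The authors deposited 1 intensity value per probe set and array on a linear scale. Per the submitters' processing notes, RMA was the method. Its version, its settings and the step back to a linear scale are not named in the labels, and quantile normalization in RMA hides a change in total RNA. Of 54613 probe sets other than controls, a platform annotation named 1 gene for 41091, several for 1801 and none for 11721. Entrez identifiers of 41037 of the 41091 were found in a RefSeq table of GRCh38.p14, which changed 0 symbols and gave gene types and gene order. The files hold 2 arrays and no counts, so no test, interval or p-value is given.

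Log2 differences and folds were computed from the deposited intensity values without a pseudocount or another normalization. Genes are represented by the probe set of highest mean log2 intensity, and the floor is the median of all intensities. Named members are those at least 1.5-fold different, the extremes of each complex, those under the floor, the restricted isoforms and any whose probe sets lie 1 or more apart; from each other list, up to 4 per direction at least 1.5-fold different. Further members are named for their role or position and were chosen after their values were seen. Members and lists were chosen with earlier results of these data known. Counting was tested on simulated data. For the neighbour medians only a plain running median was tested there, which kept the gene itself and left no members out. Alternatives changed the normalization, the floor, the probe set, the pseudocount and the treatment of gene position. The tools were matplotlib 3.10.9, scipy 1.17.1, Python 3.11.15, pandas 2.3.3 and numpy 2.4.6.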

Additional observations from a re-analysis of the deposited data

How the results depend on the processing

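The medians over all members, of each complex and of each mitochondrial list were recomputed under 12 other settings. So were the counts of members past 1.5-fold and 2-fold and the values of 53 named genes. Of the settings 2 were chosen after seeing the data, a floor of 1000 and subtraction of the neighbours' median. The neighbour correlations, the chromosome 19 medians, the standard deviations, the counts within lists and the motif shares were not recomputed. The median over all members, -0.06 as reported, was -0.11 with each array centred on its median, -0.034 with the mean of probe sets, -0.014 with each gene's least different probe set and -0.024 when sets able to match several transcripts were left out. That of complex I was -0.21 after median centring and -0.066 with the least different probe set, and that of complex V -0.017 with the least different probe set. With neighbours subtracted the medians of complexes II, III, IV and V were -0.014, -0.12, -0.020 and -0.018, so complexes II and IV changed sign. The median of complex II, 0.033 as reported, was also -0.014 after median centring and -0.013 with the least different probe set. That of complex III, -0.025 as reported, was 0.013 both with the least different probe set and without sets able to match several transcripts. The count at least 2-fold higher, 1 as reported, was 0 after median centring and 0 with neighbours subtracted. The count at least 1.5-fold higher, 3 as reported, was 5 when sets able to match several transcripts were left out. The count at least 1.5-fold lower, 7 as reported, was 4 with the mean of probe sets, 4 with the least different one and 4 with neighbours subtracted, but 10 after median centring and 8 after quantile normalization. NDUFS7 turned to 0.10 and COA1 to 0.019 both with the least different probe set and without sets able to match several transcripts. SLC25A4 turned to 0.031 with the least different probe set. NDUFB9 turned to -0.42 and the ribosomal MRPL13 to -0.072 with neighbours subtracted. Of the values of 53 named genes under these settings, 575 moved by no more than the spread between probe sets, and 19 moved by more. That spread was taken as 0.24 for members and 0.49 for other genes. A further 7 reversed, counted only for genes at least 1.5-fold different as reported. POLRMT and UQCR11 are not among the 53, and their least different probe sets stood at 0.13 and 0.03. The cause was not tested. No paired analysis was possible because each group held 1 array, and for the same reason none could be left out.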

Other observations

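Genes of the mitochondrial ribosome, which translates the subunits encoded in mitochondrial DNA, leaned lower on the SOX2 knockdown array. The number below 0 was 56 of 75 measured, where 6877 of all 13609 genes lay below 0. By 1.5-fold or more, 15 differed downward and 4 upward, together 25.3%, where 14.8% of all genes were lower and 15.0% higher, together 29.8%. The list had a median of -0.32, where the median of all genes was -0.0063. MRPL52 stood at 864 on the SOX2 knockdown array and 1951 on the mock array, a difference of -1.18. MRPL58, a peptide release factor of that ribosome, differed by -1.09, MRPL38 by -1.08 and MRPL34 by -0.98, though another probe set of MRPL38 differed by -0.13. The highest was MRPL13, with 5238 on the SOX2 knockdown array and 2138 on the mock array, a difference of 1.29, beside chromosome 8 neighbours at a median of 1.36, the stretch that also holds NDUFB9. MRPS21, MRPL57 and MRPS12 differed by 0.93, 0.65 and 0.65.

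Enzymes of the tricarboxylic acid cycle and the pyruvate dehydrogenase complex, which supply electrons to complexes I and II, had a median of -0.33 over 15 measured genes. At least 1.5-fold lower were 4, PDHX at -0.83, DLST at -0.72, IDH3B at -0.67 and PDHB at -0.65. With the 1 higher gene these make 33.3% of the list, where 29.8% of all genes differed by as much. IDH3G, a regulatory subunit of the same isocitrate dehydrogenase as IDH3B, stood at 1437 on the SOX2 knockdown array and 802 on the mock array, a difference of 0.84, and 0.23 at its other probe set, beside neighbours at 0.67. Citrate synthase, CS, often used as a measure of mitochondrial content, stood at 2569 on the SOX2 knockdown array and 3146 on the mock array, a difference of -0.29. No difference between these lists and the subunits was tested.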
